A study of Homo sapiens with 16 samples.

Results

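Axon guidance genes were examined in the stepwise gemcitabine-resistant GRC1 cell line, as the semaphorins with their plexin and neuropilin receptors, the ephrins with their Eph receptors, the slits with their ROBO receptors, and the netrins with DCC and the UNC5 receptors. Members were chosen by gene symbol, and antisense genes were left out. This gave 69 of the 39007 genes of the expression table: 20 semaphorins, 9 plexins, 2 neuropilins, 14 Eph receptors, 8 ephrins, 3 slits, 4 ROBO genes, 4 netrins and 5 netrin receptors. RNA was sequenced from 16 libraries of T24, a human bladder cancer cell line, and of GRC1, which was derived from T24 by repeated rounds of gemcitabine, a nucleoside analogue that blocks DNA synthesis, and each round that cells survived counts as a phase. There were 4 libraries each of T24 before any round of gemcitabine (parental phase P0) and of phases P3 (early), P7 (intermediate) and P15 (late), all grown in the same serum-containing medium. The titles of all 16 libraries, P0 included, carry the same tag NT, which they do not explain. The methods do not state whether gemcitabine was present when RNA was taken. The 3 resistant phases are time-points of 1 derived line, so a difference between phases is a difference within this line. As the labels name no separate cultures, the p-values measure only the spread between libraries, which may be technical. Values are log2(CPM + 1), where CPM is the count of a gene scaled to the total of its library, and the values of a phase are always given in the order of replicates 1 to 4.

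Guidance proteins are ligands and receptors that tell a growing axon or a moving cell where to turn, by attraction or repulsion. Secreted slits and netrins act over a distance, ephrins and most semaphorins act at cell contacts, and the receptors pass the signal to small GTPases that reshape the actin skeleton. Outside the nervous system the same proteins act in blood vessels and epithelia, where they set cell adhesion, sorting and migration.

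Total counts were estimated at 33.6 to 50.1 M per library from the steps between low values, and 3 counts, the detection floor here, were 0.0599 to 0.0892 CPM (counting error only). Of the urothelial and epithelial markers, 7 of 16 had a mean above 1 CPM (KRT7, KRT8, KRT18, KRT19, GATA3, PPARG and EPCAM), while CDH1, KRT5, KRT20, TP63 and the uroplakins did not. Their summed level was 2178 to 2252 CPM at P0 and 2419 to 2554 CPM at P3. It was 1775 to 1922 CPM at P7 and 695 to 773 CPM at P15. The sum was thus lowest at the phase at which most guidance genes moved, but its members diverged. KRT18 was highest at P15, at a mean of 633 CPM against 471 CPM at P0, and UPK1A rose from 0.0749 to 1.98 CPM. KRT7 fell from 957 CPM at P0 to 11.5 CPM at P15 and KRT8 from 593 to 70.3 CPM. KRT19, GATA3, PPARG and EPCAM were lowest at P15 too. The part of these markers in the results was not tested. The 3 leukocyte markers stayed at or below 0.057 CPM in sum, and the defining fibroblast markers DCN, LUM and PDGFRA stayed below 1 CPM on average, while the fibroblast list as a whole was at 23.2 to 26.3 CPM at P15, nearly all of it COL1A1, and at 1.63 to 5.77 CPM in the other phases. The endothelial list was at 5.95 to 7.95 CPM at P0, almost all of it CDH5, and at or below 1.09 CPM in every later library, and the neural list, of which TUBB3 alone passed 1 CPM, was at 2.17 to 6.75 CPM in all libraries.

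Of the 69 guidance genes, 46 averaged above 1 CPM and were tested with limma among all 13249 genes that did, with Benjamini-Hochberg adjustment. The average was over all 16 libraries, so a gene could enter through P15 alone. SEMA6A and UNC5B averaged below 1 CPM at P0, P3 and P7, and SEMA4G and EFNB3 did so at P3 and P7. Counts of members called higher at P15 include such genes, and the same filter applied to all genes. A gene was called at an adjusted p below 0.05 together with at least a 2-fold difference on the log2(CPM + 1) scale. In early phase P3 against parental phase P0, 8 of the 46 (17.4%) were called, beside 4.47% of all genes tested. Of these 6 were higher and 2 lower, beside 1.95% and 2.51% of all genes. In P7 against P3 there were 3 (6.52%), beside 1.84% of all genes, with 2 higher and 1 lower beside 0.996% and 0.845%. In P15 against P7 there were 29 (63%), beside 25.5%, with 15 higher and 14 lower beside 13.4% and 12.1%. In P15 against P0 there were 27 (58.7%), beside 23.6%, with 14 higher and 13 lower beside 12.2% and 11.5%. The median absolute log2 fold change of the guidance genes was 0.42, 0.21, 1.36 and 1.29 in these 4 comparisons, and that of all genes tested was 0.23, 0.17, 0.55 and 0.51. Comparisons that share a phase share its libraries, so their values stand side by side here and were not treated as independent. In total 30 members were called in at least 1 comparison and 16 in none. The share of all genes called in at least 1 comparison was not counted, so this total has no baseline. As the RNA is from bulk cultures, fewer cells that express a gene and less RNA per cell cannot be told apart.

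**Figure D1:**
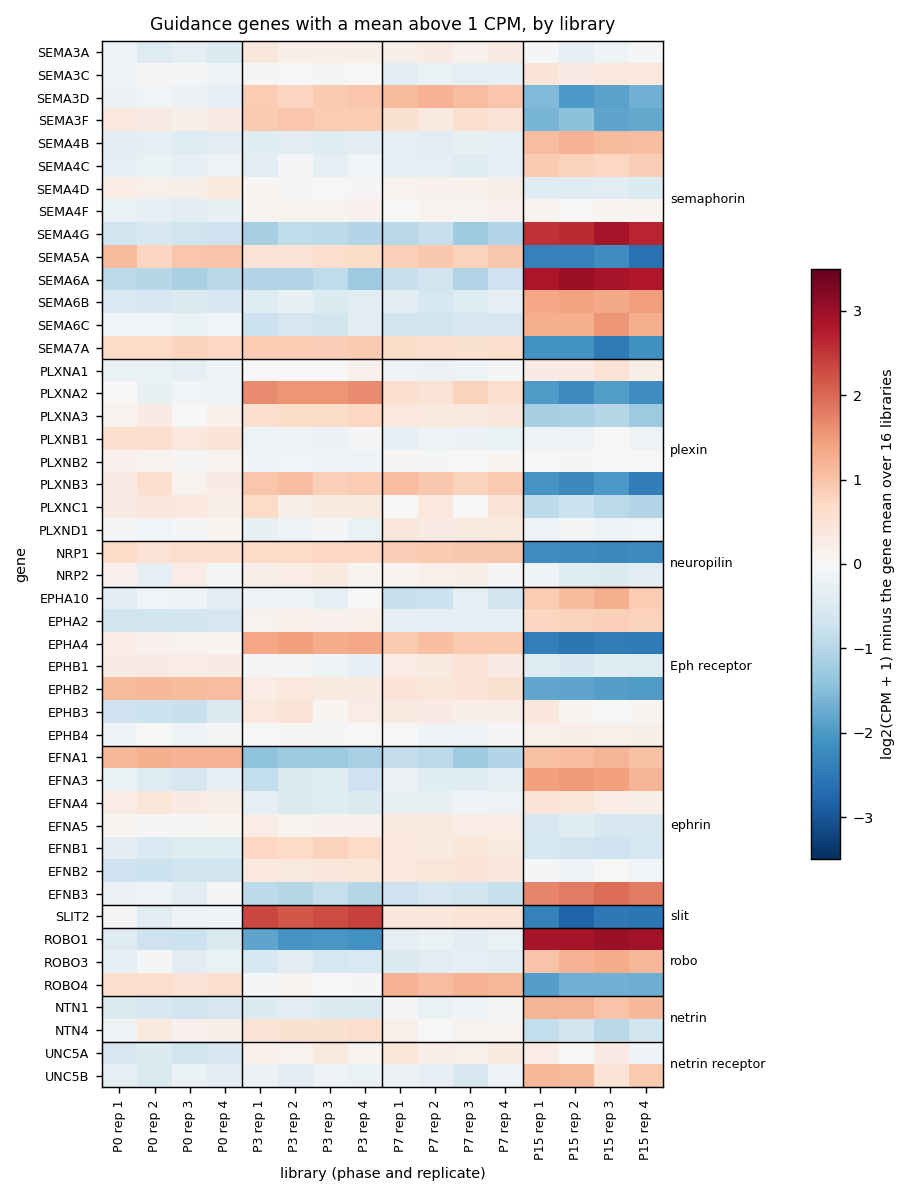
Each row is 1 of the 46 tested guidance genes and each column 1 of the 16 libraries, and the colour is log2(CPM + 1) minus the mean of the gene over all libraries. The P15 columns hold the strongest reds and blues, with 18 genes at their highest and 19 at their lowest phase mean there, and SLIT2 is the gene that stands out at P3.

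Without the fold threshold, 37, 31, 41 and 43 of the 46 members passed the adjusted p in P3 against P0, P7 against P3, P15 against P7 and P15 against P0, beside 68.7%, 58.2%, 86.4% and 86.2% of all genes. Late phase P15 held the highest mean of 18 members and the lowest mean of 19, which is 37 of 46, beside 82% of all genes tested. Early phase P3 held the highest mean of 13 members and the lowest of 10, beside 20.1% and 24.5% of all genes. Parental phase P0 held the highest of 6 and the lowest of 11 (20.1% and 18.4% of all genes), and intermediate phase P7 the highest of 9 and the lowest of 6 (16.2% and 18.6%).

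**Figure D2:**
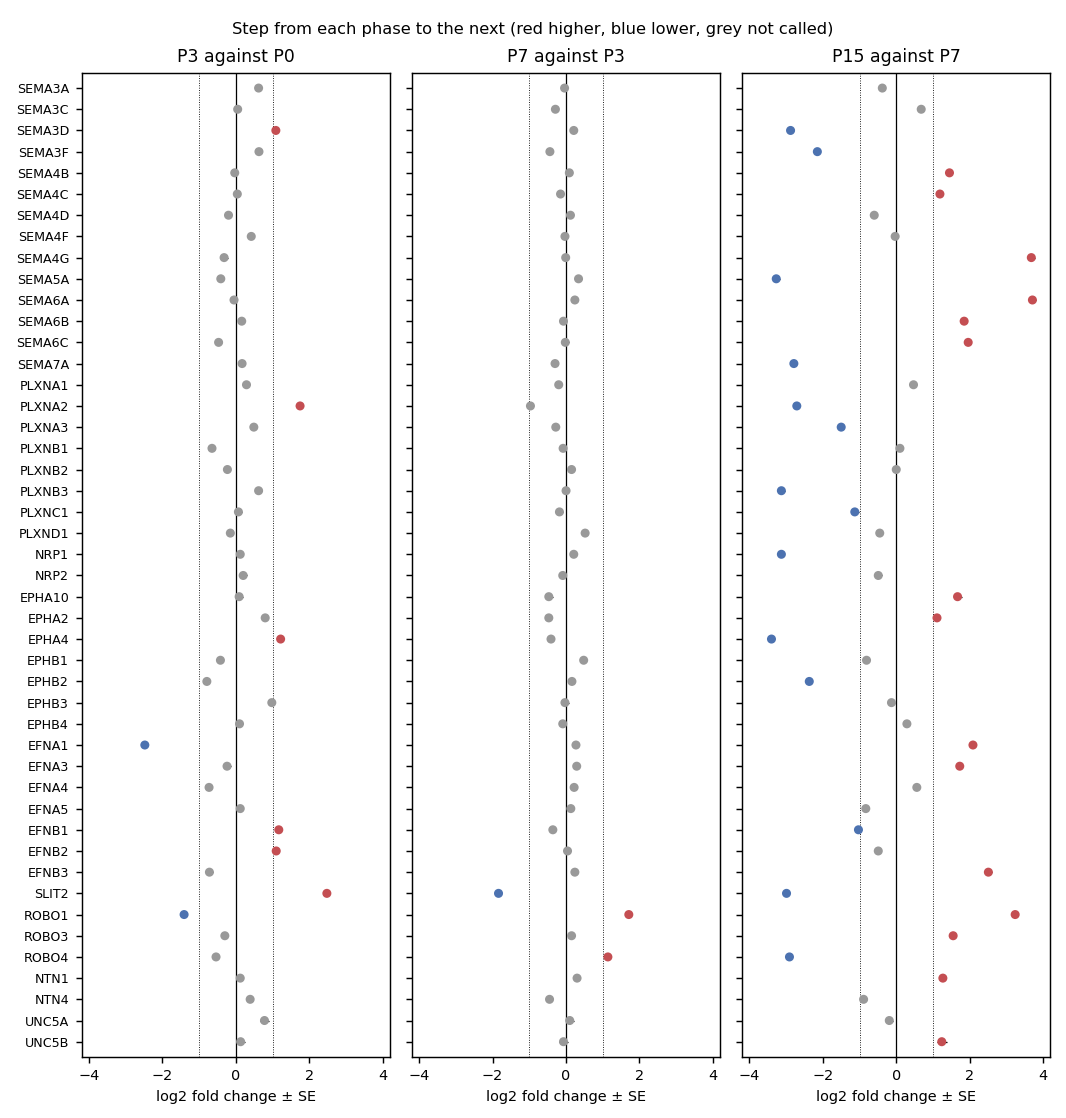
Points are the log2 fold change of each tested member from 1 phase to the next, with the standard error as a bar that is mostly hidden by the point. Dotted lines mark 2-fold, and the called members number 8, 3 and 29 from the left panel to the right.

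The slit and ROBO genes were the only families with a called member in each step from phase to phase. SLIT2, a secreted ligand that repels axons and migrating cells, rose at P3, fell at P7 and fell again at P15, and ROBO1, its main repulsive receptor, fell at P3 and then rose at P7 and at P15. The log2(CPM + 1) values of SLIT2 were 4.64, 4.33, 4.59 and 4.56 at P0 and 7.05, 6.89, 6.99 and 7.10 at P3. SLIT2 read 5.12, 5.11, 5.21 and 5.23 at P7 and 2.36, 1.92, 2.23 and 2.19 at P15 on the same scale. All 4 P3 libraries lay above every other library and all 4 P15 libraries below every other. As a log2 fold change, SLIT2 had 2.48 (SE 0.08, adjusted p = 1.4e-18) in P3 against P0 and -1.84 (SE 0.08, adjusted p = 1.3e-15) in P7 against P3. It was -2.99 (SE 0.08, adjusted p = 2.3e-21) in P15 against P7, which left P15 at -2.35 (SE 0.08, adjusted p = 3.2e-19) against P0. ROBO1 was at 3.17, 2.90, 2.86 and 3.10 at P0 and 1.76, 1.56, 1.58 and 1.50 at P3 in log2(CPM + 1). For ROBO1 the P7 libraries read 3.27, 3.38, 3.21 and 3.38, and the P15 libraries 6.51, 6.51, 6.64 and 6.55 on the same scale. The P3 libraries were the lowest and the P15 libraries the highest, and P0 and P7 lay between them with P7 slightly above P0. The log2 fold changes of ROBO1 were -1.41 (SE 0.08, adjusted p = 5e-14) into P3, 1.71 (SE 0.08, adjusted p = 3.7e-15) into P7 and 3.24 (SE 0.08, adjusted p = 3.7e-22) into P15. P15 against P0 gave 3.54 (SE 0.08, adjusted p = 6.7e-23) on the log2 scale. In mean CPM, ROBO1 was at 7.07, 2.04, 8.93 and 92.9 over P0, P3, P7 and P15, and SLIT2 at 22.2, 128, 35 and 3.54. The steps of ROBO1 into P3 and P7 depend on the pseudocount, since with 5 in place of 1 its log2 fold changes were -0.78 and 0.98 and were no longer called.

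The upstream sequences of this ligand and receptor are shown because they moved in opposite directions in every step. Each is the 250 bases before an annotated start in RefSeq on GRCh38.p14, read 5′ to 3′ on the strand of the gene, and capitals mark a GC box, a TATA box or a CCAAT box on either strand. The GC box was searched as GGGCGG, and neighbouring matches of it can share bases. The TATA box was searched only as TATAAA, so a variant such as the tatataag near the end of the SLIT2 window is not marked. SLIT2 lies on the plus strand of chromosome 4 and its window is chr4:20251655-20251904, and ROBO1 lies on the minus strand of chromosome 3 with windows at chr3:79767999-79768248 and chr3:79019460-79019709 for 2 of its starts.
SLIT2: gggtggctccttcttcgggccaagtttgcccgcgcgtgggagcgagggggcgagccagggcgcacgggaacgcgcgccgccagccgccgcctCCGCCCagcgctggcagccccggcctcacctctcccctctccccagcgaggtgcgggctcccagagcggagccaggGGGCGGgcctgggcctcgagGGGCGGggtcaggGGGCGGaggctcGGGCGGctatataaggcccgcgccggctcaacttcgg
ROBO1, first window: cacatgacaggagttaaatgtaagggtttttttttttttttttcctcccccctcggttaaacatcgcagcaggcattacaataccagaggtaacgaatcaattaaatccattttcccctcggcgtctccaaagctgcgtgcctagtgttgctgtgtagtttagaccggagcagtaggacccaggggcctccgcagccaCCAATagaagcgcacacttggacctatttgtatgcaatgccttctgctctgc
ROBO1, second window: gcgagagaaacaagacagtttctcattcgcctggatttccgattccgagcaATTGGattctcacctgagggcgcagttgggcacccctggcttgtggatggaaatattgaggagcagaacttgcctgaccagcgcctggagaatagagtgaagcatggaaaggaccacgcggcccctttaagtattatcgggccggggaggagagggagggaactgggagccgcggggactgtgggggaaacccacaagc
The SLIT2 window held 5 GC boxes and 30 CG dinucleotides, while the ROBO1 windows held none of the former, 1 CCAAT box each, and 9 and 12 CG dinucleotides.

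ROBO3, which lets commissural axons cross the midline, and ROBO4, known from vessel walls, lie 2.22 kb apart on chromosome 11 (chr11:124865432-124881471 and chr11:124883691-124898500, GENCODE version 44 on GRCh38) and moved in opposite directions at P15. The ROBO3 values were 5.03, 5.24, 4.92 and 5.07 at P0 and 4.69, 4.91, 4.70 and 4.77 at P3 in log2(CPM + 1). At P7 ROBO3 read 4.82, 4.95, 4.99 and 4.92, and at P15 it read 6.31, 6.52, 6.61 and 6.46 on the same scale. All P15 libraries lay above those of the other phases, whose ranges overlapped in part, with a log2 fold change of 1.55 (SE 0.07, adjusted p = 7.3e-17) in P15 against P7 and of 1.41 (SE 0.07, adjusted p = 6e-16) in P15 against P0. For ROBO4 the log2(CPM + 1) values were 6.12, 6.12, 6.02 and 6.08 at P0 and 5.44, 5.65, 5.53 and 5.56 at P3. ROBO4 read 6.73, 6.60, 6.73 and 6.67 at P7 and 3.59, 3.84, 3.84 and 3.81 at P15 on the same scale. ROBO4 was highest at P7 and lowest at P15, and no 2 phases overlapped. The gene rose by 1.14 (SE 0.05, adjusted p = 1.4e-14) in P7 against P3 on the log2 scale. Its log2 fold change was -2.91 (SE 0.05, adjusted p = 3.7e-24) in P15 against P7 and -2.31 (SE 0.05, adjusted p = 4e-22) in P15 against P0. The ROBO4 exons share 11.2% and 6.77% of their length with a pair of lncRNAs on the other strand, and reads of such partners cannot be told apart if strand was not used in counting, which the sources used here do not state.

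Per kb of merged exon, a rough scale for comparing levels of different genes, the makeup of the ROBO family turned over at P15. ROBO4 held 65.6% ± 1.35 (SD, n = 4 libraries) of the summed CPM per kb of the ROBO genes at P0, 63.6% ± 0.693 at P3 and 75.4% ± 1.39 at P7, and 8.32% ± 0.371 at P15. ROBO1 went from 3.97% ± 0.361 at P7 to 36.6% ± 1.52 at P15 and ROBO3 from 20.6% ± 1.19 to 54.8% ± 1.27, with no overlap of libraries. ROBO2, an axon receptor next to ROBO1 on chromosome 3, was not tested, with a mean of 0.0965 CPM at P0, 0.104 at P3, 0 at P7 and 0.945 at P15. The other slits were low, as SLIT1 reached a mean of 0.397 CPM at P15 and SLIT3 went from 0.793 CPM at P0 to 0.0599 CPM at P15, neither of them tested.

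**Figure D3:**
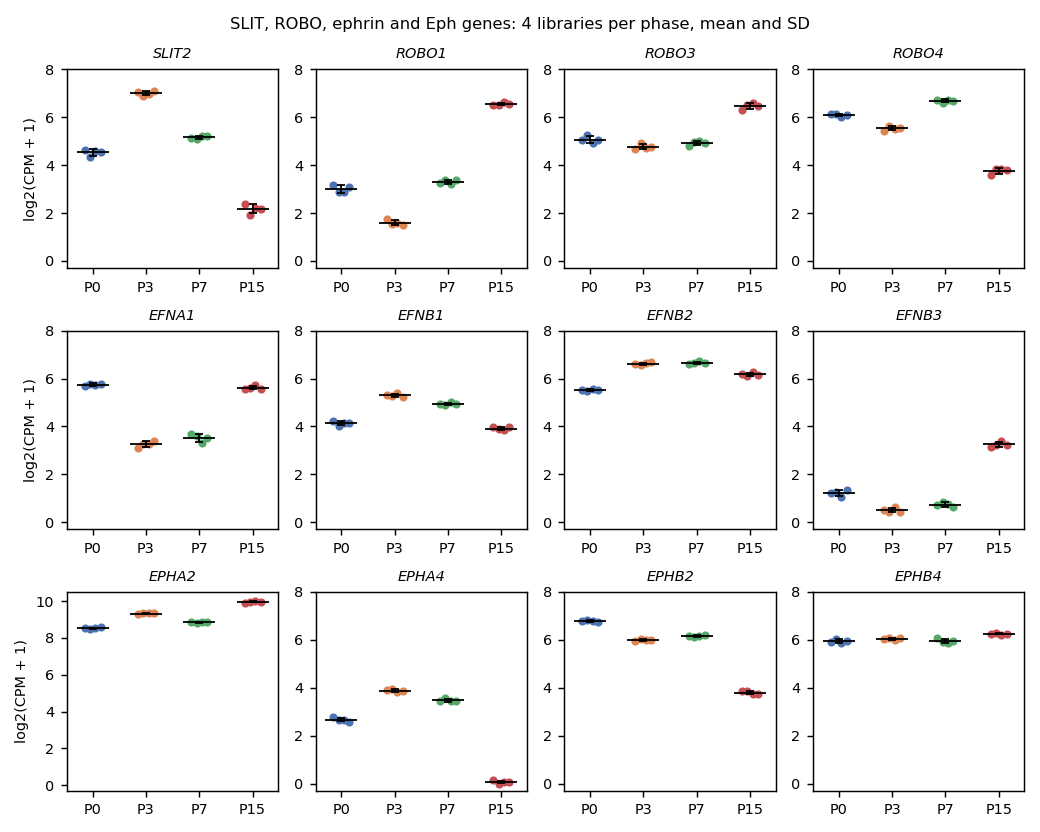
Points are the 4 libraries of a phase in log2(CPM + 1), with the mean as a line and the SD as a bar, for SLIT2, the 3 tested ROBO genes, 4 ephrins and 4 Eph receptors. SLIT2 peaks at P3 where ROBO1 is lowest, and EFNA1 drops at P3 and P7 and is back near its P0 level at P15. The EPHA2 axis runs higher than the others.

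Among the 7 tested ephrins, membrane-bound ligands of the Eph receptors, 3 were called in P3 against P0, 2 higher and 1 lower. Of all genes tested, 4.47% were called in this comparison, 1.95% higher and 2.51% lower. EFNA1, a lipid-anchored ligand of EPHA2, fell at P3, stayed low at P7 and was back at P15, while EFNB1 and EFNB2, which span the membrane, rose at P3. The directions did not follow the class, since in the same comparison EFNB3, EFNA3 and EFNA4 passed the adjusted p as lower and EFNA5 as higher, all under 2-fold on the log2(CPM + 1) scale. Of all genes tested, 68.7% passed the adjusted p there. EFNA1 read 5.67, 5.79, 5.75 and 5.77 at P0 and 3.12, 3.27, 3.27 and 3.40 at P3 in log2(CPM + 1). For EFNA1 the P7 libraries read 3.70, 3.59, 3.31 and 3.53, and the P15 libraries 5.58, 5.62, 5.74 and 5.56 on the same scale. The P3 and P7 libraries overlapped each other and lay far below those of P0 and P15, which overlapped as well. As log2 fold changes, EFNA1 had -2.48 (SE 0.07, adjusted p = 3e-19) in P3 against P0 and 0.27 (SE 0.07, adjusted p = 0.0022) in P7 against P3. P15 against P7 gave 2.09 (SE 0.07, adjusted p = 5.9e-19), and P15 against P0 gave -0.12 (SE 0.07, adjusted p = 0.11), which did not pass. EFNB1 was at 4.21, 4.03, 4.14 and 4.16 at P0 and 5.30, 5.28, 5.38 and 5.25 at P3 in log2(CPM + 1). At P7 EFNB1 read 4.95, 4.89, 5.00 and 4.92, and at P15 it read 3.96, 3.88, 3.84 and 3.96 on the same scale, highest at P3 and lowest at P15. Its difference was 1.17 (SE 0.05, adjusted p = 1.2e-15) in P3 against P0 and -1.03 (SE 0.05, adjusted p = 1.9e-15) in P15 against P7 as log2 fold changes, and the latter was -0.87 and not called with a pseudocount of 5. EFNB2, the usual partner of EPHB4 in vessels, had log2(CPM + 1) values of 5.51, 5.48, 5.55 and 5.54 at P0 and 6.62, 6.57, 6.63 and 6.67 at P3. EFNB2 read 6.62, 6.66, 6.72 and 6.65 at P7 and 6.17, 6.11, 6.27 and 6.15 at P15 on the same scale. P3 and P7 overlapped at the top, P15 lay below both and P0 was the lowest, with a log2 fold change of 1.10 (SE 0.04, adjusted p = 8.3e-18) in P3 against P0. An lncRNA on the other strand covers 36.4% of the EFNB2 exon length, and without strand in counting the reads of the pair cannot be told apart.

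The EFNA1 start is shown because, as chosen after its values were seen, it is the member that left its P0 level by more than 4-fold and did not differ detectably from it at P15. The window is chr1:155127626-155127875 on the plus strand (RefSeq, GRCh38.p14), with capitals for GC boxes.
EFNA1: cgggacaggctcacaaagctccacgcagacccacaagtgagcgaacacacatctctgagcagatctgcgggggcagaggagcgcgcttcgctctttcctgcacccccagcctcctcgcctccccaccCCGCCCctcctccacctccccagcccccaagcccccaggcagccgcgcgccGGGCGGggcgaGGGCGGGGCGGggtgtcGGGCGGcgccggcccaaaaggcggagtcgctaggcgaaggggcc
It held 5 GC boxes, of which 2 share a base, and 24 CG dinucleotides.

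EFNB3 and EFNA3, low in the first 3 phases, rose at P15. EFNB3 was at 1.21, 1.25, 1.07 and 1.36 at P0 and 0.51, 0.43, 0.62 and 0.44 at P3 in log2(CPM + 1). For EFNB3 the P7 libraries read 0.71, 0.85, 0.76 and 0.64, and the P15 libraries 3.15, 3.24, 3.38 and 3.23 on the same scale, so all P15 libraries lay far above the rest. The log2 fold change of EFNB3 was 2.51 (SE 0.09, adjusted p = 2.2e-18) in P15 against P7 and 2.03 (SE 0.09, adjusted p = 1.9e-16) in P15 against P0. In P3 against P0 EFNB3 was lower, at -0.72 (SE 0.09, adjusted p = 1.6e-07) as log2 fold change and 3.22-fold in mean CPM, not called, and called with a pseudocount of 0.1 (-1.48). EFNA3 had 1.47, 1.26, 1.11 and 1.39 at P0 and 0.84, 1.20, 1.25 and 0.98 at P3 in log2(CPM + 1). At P7 EFNA3 read 1.50, 1.29, 1.29 and 1.37, and at P15 it read 3.15, 3.20, 3.14 and 2.89 on the same scale, where P15 was the only phase apart from all others. For EFNA3 the log2 fold changes were 1.73 (SE 0.10, adjusted p = 9.7e-14) and 1.79 (SE 0.10, adjusted p = 5.8e-14) in P15 against P7 and against P0, which became 0.93 and 0.95 and were not called with a pseudocount of 5. EFNA4, EFNA3 and EFNA1 lie side by side on chromosome 1 with gaps of 9.28 and 40.3 kb, and a readthrough gene of the first pair shares 43.9% of the EFNA3 exon length, so the reads of EFNA3 are uncertain. EFNA4 had a log2 fold change of -0.73 (SE 0.07, adjusted p = 4.5e-09) in P3 against P0 and 0.56 (SE 0.07, adjusted p = 1.6e-07) in P15 against P7. P15 against P0 gave 0.04 (SE 0.07, adjusted p = 0.57) for EFNA4, which did not pass. EFNA5 changed by less than 2-fold, with -0.59 (SE 0.05, adjusted p = 9.4e-11) in P15 against P0, and EFNA2 was not tested at a mean of 0.327 CPM at P15 and 0 at P0 and P3.

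Per kb of exon, EFNA1 made up 47.2% ± 0.979 (SD, n = 4 libraries) of the ephrin level at P0, 8.93% ± 0.798 at P3, 10.9% ± 1.36 at P7 and 38.3% ± 1.21 at P15. EFNB2 made up 17.4% ± 0.528, 43.6% ± 0.842, 44.5% ± 1.12 and 24.4% ± 0.883 in the same order, and EFNB1 9.76% ± 0.679, 26.1% ± 0.852, 19.9% ± 0.518 and 7.29% ± 0.537. On this scale the most abundant ephrin was therefore EFNA1 at P0 and P15 and EFNB2 at P3 and P7. At P15 the order depends on the exon length used, since in mean CPM EFNB2 was at 71.3 and EFNA1 at 48.4. The summed CPM per kb of the ephrins moved far less than these shares, from 51.5 ± 0.857 at P0 to 44.7 ± 0.89 at P3, 45.1 ± 0.385 at P7 and 58.4 ± 1.9 at P15.

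Of the 14 Eph receptors, tyrosine kinases that bind ephrins on neighbouring cells, 7 were tested, and at P15 the called A receptors split while EPHB2 fell. EPHA2, the main receptor of EFNA1, was the most abundant of them in every phase, with 80.9% ± 0.77 of the Eph level per kb of exon at P0 and 94.1% ± 0.192 at P15 (SD, n = 4 libraries). Its log2(CPM + 1) values were 8.52, 8.48, 8.54 and 8.57 at P0 and 9.29, 9.35, 9.33 and 9.34 at P3. EPHA2 read 8.86, 8.82, 8.88 and 8.88 at P7 and 9.92, 9.98, 10.00 and 9.97 at P15 on the same scale. No 2 phases overlapped, and the order from low to high was P0, P7, P3 and P15. EPHA2 had log2 fold changes of 0.80 (SE 0.03, adjusted p = 2.1e-17) in P3 against P0 and -0.47 (SE 0.03, adjusted p = 1.6e-12) in P7 against P3, both under 2-fold. It was called with 1.11 (SE 0.03, adjusted p = 2.8e-21) in P15 against P7 and 1.44 (SE 0.03, adjusted p = 1.6e-23) in P15 against P0. Under quantile normalization P15 against P7 gave 0.92 for EPHA2 and was not called. EPHA4, which binds ephrins of both classes, was at 2.77, 2.67, 2.64 and 2.59 at P0 and 3.89, 3.95, 3.83 and 3.87 at P3 in log2(CPM + 1). For EPHA4 the P7 libraries read 3.43, 3.57, 3.44 and 3.44, and the P15 libraries 0.14, 0.00, 0.08 and 0.06 on the same scale. It was highest at P3. At P15 only replicate 1 lay above the level of 3 counts (0.084 to 0.123 on this scale), and the mean of 0.0503 CPM was under that floor. EPHA4 had a log2 fold change of 1.22 (SE 0.07, adjusted p = 2.7e-13) in P3 against P0, which was 0.86 and not called with a pseudocount of 5. It was -3.40 (SE 0.07, adjusted p = 4.6e-23) in P15 against P7 and -2.60 (SE 0.07, adjusted p = 1.1e-20) in P15 against P0, sizes that are limited by the pseudocount.

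EPHB2, a receptor of B ephrins that takes part in cell sorting in the gut, had log2(CPM + 1) values of 6.79, 6.82, 6.79 and 6.76 at P0 and 5.96, 6.05, 6.00 and 6.01 at P3. At P7 EPHB2 read 6.18, 6.11, 6.16 and 6.21, and at P15 it read 3.87, 3.85, 3.76 and 3.72 on the same scale. It was highest at P0 and lowest at P15 with no overlap, with a log2 fold change of -2.37 (SE 0.04, adjusted p = 5.1e-25) in P15 against P7 and -2.99 (SE 0.04, adjusted p = 4.9e-27) in P15 against P0. EPHA10, which lacks kinase activity, was low, with 1.00, 1.28, 1.22 and 0.96 at P0 and 1.18, 1.25, 1.03 and 1.34 at P3 in log2(CPM + 1). EPHA10 read 0.59, 0.62, 1.03 and 0.69 at P7 and 2.26, 2.48, 2.63 and 2.25 at P15 on the same scale with all P15 libraries on top. It had log2 fold changes of 1.67 (SE 0.11, adjusted p = 1.2e-12) in P15 against P7 and 1.29 (SE 0.11, adjusted p = 1.9e-10) in P15 against P0, which were 0.72 and 0.59 and not called with a pseudocount of 5. EPHB4, a receptor of EFNB2, was nearly level, at 5.95 ± 0.07 at P0 and 6.25 ± 0.02 at P15 in log2(CPM + 1), a difference of 0.29 (SE 0.04, adjusted p = 4.3e-07). EPHB1 and EPHB3 passed the adjusted p without reaching 2-fold on the log2(CPM + 1) scale, with log2 fold changes in P15 against P0 of -0.75 (adjusted p = 4.5e-10) and 0.82 (adjusted p = 6.6e-08). EPHB3, a receptor of B ephrins, was 3.12-fold higher in mean CPM in P3 against P0 (log2 fold change 0.98 (SE 0.10, adjusted p = 9.2e-09)) and 2.69-fold higher in P15 against P0. Both were called with a pseudocount of 0.1 (1.54 and 1.33), and the first also under quantile normalization (1.09), without P0 replicate 4 (1.05) and without P3 replicate 3 (1.06). Of the 7 receptors not tested, EPHA3 and EPHB6 had a mean of 1.2 and 1.19 CPM at P15 against 0.0322 and 0.0524 CPM at P7, and EPHA5 was listed at 0 in all 16 libraries.

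**Figure D4:**
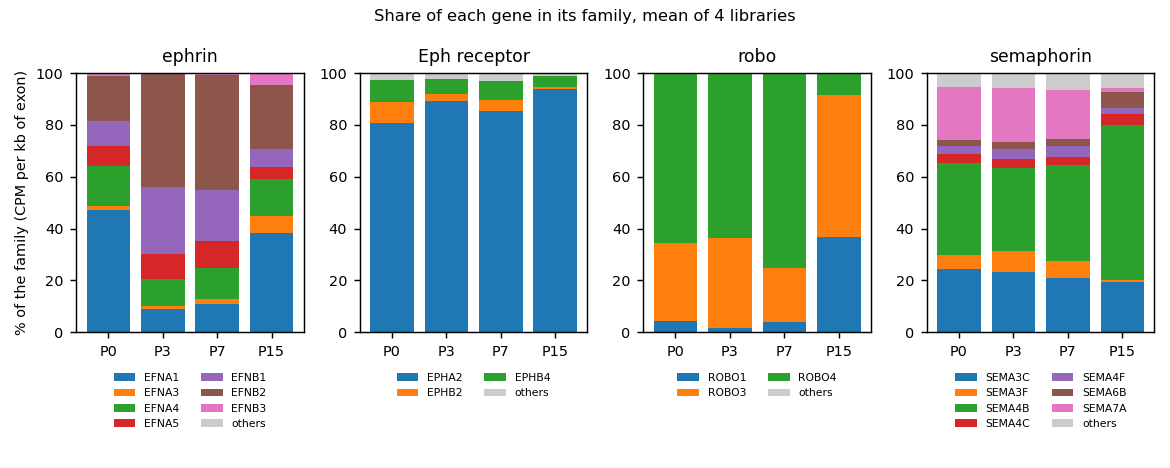
Bars are the share of each gene in the summed CPM per kb of exon of its family, as a mean of 4 libraries per phase. EFNA1 gives way to EFNB2 at P3 and P7, EPHA2 holds 80.9% or more of its family throughout, ROBO4 drops to 8.32% at P15, and SEMA4B grows to 59.6% of the semaphorins at P15.

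Semaphorins bind plexins, and the secreted class 3 members need a neuropilin as well. Of the 14 tested, 10 were called in P15 against P0, 6 higher and 4 lower, which is 71.4% beside 23.6% of all genes tested. The 6 that rose (SEMA4B, SEMA4C, SEMA4G, SEMA6A, SEMA6B and SEMA6C) span the membrane and belong to classes 4 and 6. The 4 that fell were the secreted SEMA3D and SEMA3F, the membrane-spanning SEMA5A and the lipid-anchored SEMA7A. This grouping by class was made after the values were seen and was not tested. SEMA4B was the most abundant semaphorin per kb of exon in all phases, at 35.3% ± 0.664 (SD, n = 4 libraries) of the family at P0 and 59.6% ± 1.5 at P15. Its log2(CPM + 1) values were 8.34, 8.37, 8.27 and 8.35 at P0 and 8.29, 8.31, 8.30 and 8.32 at P3. For SEMA4B the P7 libraries read 8.40, 8.33, 8.45 and 8.38, and the P15 libraries 9.80, 9.93, 9.83 and 9.81 on the same scale, so that only the P15 libraries stood apart. SEMA4B had a log2 fold change of 1.45 (SE 0.03, adjusted p = 2e-22) in P15 against P7 and 1.51 (SE 0.03, adjusted p = 9.6e-23) in P15 against P0. SEMA4C, a ligand of PLXNB2, was at 4.84, 4.92, 4.86 and 4.98 at P0 and 4.78, 5.08, 4.83 and 5.06 at P3 in log2(CPM + 1). At P7 SEMA4C read 4.80, 4.80, 4.69 and 4.85, and at P15 it read 6.06, 5.94, 5.87 and 6.02 on the same scale, again with the P15 libraries on top. It differed by 1.19 (SE 0.06, adjusted p = 4.7e-15) and 1.07 (SE 0.06, adjusted p = 4.1e-14) in P15 against P7 and P0 as log2 fold changes, and the latter was 0.98 and not called with a pseudocount of 5.

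SEMA4G and SEMA6A had the largest rises, from a mean of 0.743 and 0.984 CPM at P7 to 21.3 and 24.8 CPM at P15. SEMA4G had log2(CPM + 1) values of 1.11, 1.23, 1.09 and 1.06 at P0 and 0.64, 0.92, 0.87 and 0.77 at P3. SEMA4G read 0.84, 1.00, 0.55 and 0.78 at P7 and 4.34, 4.42, 4.68 and 4.46 at P15 on the same scale. The P15 libraries were far above all others, with a log2 fold change of 3.68 (SE 0.10, adjusted p = 8.6e-21) in P15 against P7 and 3.35 (SE 0.10, adjusted p = 6.4e-20) in P15 against P0. Exons of MRPL43 on the other strand cover 22.9% of the SEMA4G exon length, and MRPL43 was level, with a mean of 5.81 at P7 and 5.71 at P15 in log2(CPM + 1). SEMA6A, a ligand of PLXNA2 and PLXNA4, was at 0.86, 0.80, 0.66 and 0.83 at P0 and 0.78, 0.74, 0.90 and 0.53 at P3 in log2(CPM + 1). For SEMA6A the P7 libraries read 1.00, 1.10, 0.76 and 1.07, and the P15 libraries 4.66, 4.80, 4.69 and 4.61 on the same scale, with the same gap between P15 and the rest. The SEMA6A log2 fold change of 3.90 (SE 0.09, adjusted p = 1e-21) in P15 against P0 was the largest of the 46 tested members on this scale, and P15 against P7 gave 3.71 (SE 0.09, adjusted p = 2.7e-21). In mean CPM it was 34.1-fold higher than at P0, a smaller ratio than that of SEMA5A, which was 39.9-fold lower, and the mean of EPHA4 went below the 3-count level. SEMA6B, a ligand of PLXNA4, read 4.07, 4.01, 4.11 and 4.02 at P0 and 4.15, 4.35, 4.12 and 4.24 at P3 in log2(CPM + 1). At P7 SEMA6B read 4.20, 3.98, 4.14 and 4.25, and at P15 it read 5.95, 6.01, 5.93 and 6.07 on the same scale. It rose by 1.85 (SE 0.06, adjusted p = 3.6e-19) in P15 against P7 and 1.94 (SE 0.06, adjusted p = 1.5e-19) in P15 against P0 as log2 fold changes, without overlap. SEMA6C was at 1.96, 1.94, 1.83 and 1.96 at P0 and 1.31, 1.46, 1.40 and 1.64 at P3 in log2(CPM + 1). SEMA6C read 1.41, 1.41, 1.45 and 1.45 at P7 and 3.33, 3.33, 3.60 and 3.31 at P15 on the same scale. It was lower at P3 and P7 than at P0 and highest at P15, with log2 fold changes of 1.96 (SE 0.09, adjusted p = 1.5e-16) and 1.47 (SE 0.09, adjusted p = 5.7e-14) in P15 against P7 and P0, and the latter was 0.90 and not called with a pseudocount of 5.

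The 4 semaphorins that fell did so by at least 1.57 on the log2 scale in P15 against P0. SEMA7A, which binds PLXNC1 and integrins, had log2(CPM + 1) values of 6.64, 6.66, 6.72 and 6.69 at P0 and 6.84, 6.83, 6.82 and 6.88 at P3. For SEMA7A the P7 libraries read 6.60, 6.51, 6.49 and 6.56, and the P15 libraries 3.87, 3.86, 3.48 and 3.80 on the same scale. It was slightly higher at P3 (0.17, adjusted p = 0.015, against P0) and lower at P7 (-0.30, adjusted p = 0.0001, against P3), each without overlap. It then dropped, with a log2 fold change of -2.79 (SE 0.06, adjusted p = 4.4e-23) in P15 against P7 and -2.92 (SE 0.06, adjusted p = 1.8e-23) in P15 against P0, and its share of the semaphorins per kb of exon went from 18.8% ± 0.657 at P7 to 1.5% ± 0.186 at P15. SEMA5A, a ligand of PLXNB3, was at 3.86, 3.51, 3.72 and 3.75 at P0 and 3.23, 3.21, 3.36 and 3.41 at P3 in log2(CPM + 1). At P7 SEMA5A read 3.59, 3.71, 3.56 and 3.71, and at P15 it read 0.38, 0.38, 0.59 and 0.15 on the same scale. All 4 P15 libraries were below every other library, at a mean of 0.304 CPM, and the log2 fold change was -3.27 (SE 0.09, adjusted p = 1.4e-20) in P15 against P7 and -3.33 (SE 0.09, adjusted p = 9.8e-21) in P15 against P0. SEMA3F, a repellent that signals through NRP2, read 5.26, 5.17, 5.09 and 5.18 at P0 and 5.81, 5.86, 5.77 and 5.79 at P3 in log2(CPM + 1). SEMA3F read 5.43, 5.20, 5.47 and 5.37 at P7 and 3.26, 3.46, 3.06 and 3.11 at P15 on the same scale, highest at P3 and lowest at P15. The log2 fold change of SEMA3F was 0.63 (SE 0.07, adjusted p = 2.4e-08) in P3 against P0, under 2-fold. At P15 it was -2.15 (SE 0.07, adjusted p = 3.2e-19) against P7 and -1.95 (SE 0.07, adjusted p = 2.4e-18) against P0. SEMA3D, secreted too, was at 2.86, 2.96, 2.86 and 2.74 at P0 and 3.96, 3.82, 3.99 and 4.02 at P3 in log2(CPM + 1). For SEMA3D the P7 libraries read 4.18, 4.29, 4.13 and 4.04, and the P15 libraries 1.52, 1.05, 1.19 and 1.38 on the same scale. It rose at P3 by 1.09 (SE 0.09, adjusted p = 1.2e-10) and fell at P15 by 2.88 (SE 0.09, adjusted p = 1.1e-19) against P7 on the log2 scale, and P15 against P0 gave -1.57 (SE 0.09, adjusted p = 2.6e-14). With a pseudocount of 5 the SEMA3D differences of P3 against P0 and P15 against P0 were 0.79 and -0.80 and were not called.

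Starts of 3 of these genes are shown, 1 that rose and 2 that fell by more than 4-fold in P15 against P0. Windows are chr10:100969254-100969503 (plus strand) for SEMA4G, chr5:9546076-9546325 (minus strand) for SEMA5A and chr15:74433959-74434208 (minus strand) for SEMA7A, in RefSeq on GRCh38.p14, with GC boxes in capitals.
SEMA4G: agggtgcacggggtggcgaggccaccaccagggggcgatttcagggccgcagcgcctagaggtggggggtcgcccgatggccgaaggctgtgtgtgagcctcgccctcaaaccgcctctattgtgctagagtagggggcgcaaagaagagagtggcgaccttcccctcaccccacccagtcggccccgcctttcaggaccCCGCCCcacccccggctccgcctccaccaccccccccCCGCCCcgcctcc
SEMA5A: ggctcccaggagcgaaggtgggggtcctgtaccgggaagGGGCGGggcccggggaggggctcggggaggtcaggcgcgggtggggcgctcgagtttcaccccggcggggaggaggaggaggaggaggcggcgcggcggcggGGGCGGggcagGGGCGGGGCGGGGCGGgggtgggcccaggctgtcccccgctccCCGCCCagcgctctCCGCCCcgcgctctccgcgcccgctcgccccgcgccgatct
SEMA7A: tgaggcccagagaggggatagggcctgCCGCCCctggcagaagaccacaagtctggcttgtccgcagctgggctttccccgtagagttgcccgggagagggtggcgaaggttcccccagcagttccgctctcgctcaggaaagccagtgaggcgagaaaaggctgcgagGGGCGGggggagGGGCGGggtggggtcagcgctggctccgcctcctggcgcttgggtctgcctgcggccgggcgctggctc
All 3 held GC boxes (2, 7 and 3) and many CG dinucleotides (19, 33 and 17), the riser like the ones that fell.

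**Figure D5:**
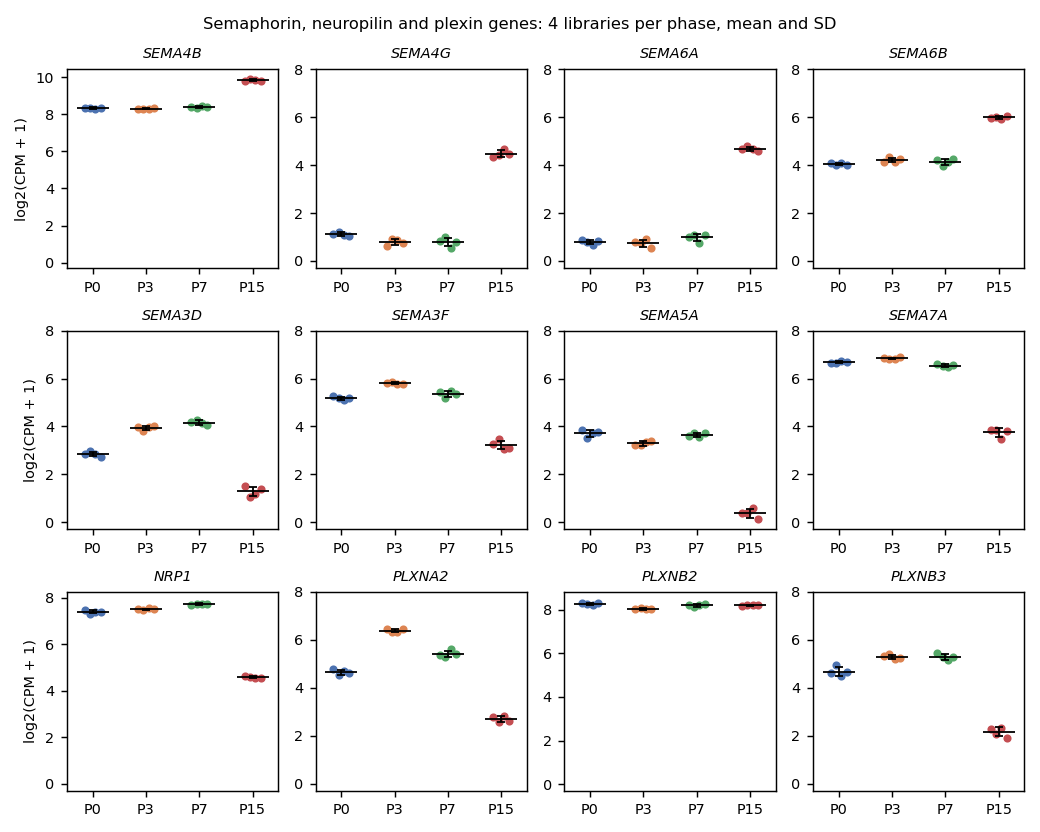
Points are the 4 libraries of a phase in log2(CPM + 1), with the mean as a line and the SD as a bar, for 8 semaphorins, NRP1 and 3 plexins. The top row rises at P15 and the middle row falls there, while PLXNB2 in the bottom row stays between 8.02 and 8.31 in all libraries. Axes of SEMA4B and PLXNB2 run higher than the others.

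The remaining tested semaphorins changed less. SEMA3C, the second most abundant per kb of exon at P0 with 24.3% ± 0.965 of the family (SD, n = 4 libraries), had a log2 fold change of 0.68 (SE 0.04, adjusted p = 2.3e-14) in P15 against P7. SEMA3A, the classic growth cone collapsing factor, had 0.62 (SE 0.07, adjusted p = 1.7e-08) in P3 against P0 and 0.21 (SE 0.07, adjusted p = 0.0056) in P15 against P0. SEMA4D, the ligand of PLXNB1, was lower at P15, with -0.68 (SE 0.05, adjusted p = 8e-13) against P0, and SEMA4F was higher than at P0 by 0.36 (SE 0.05, adjusted p = 1.6e-07). SEMA3B, 78.5 kb from SEMA3F on chromosome 3, was not tested, but its log2(CPM + 1) values were 0.34, 0.57, 0.30 and 0.49 at P7 and 1.80, 2.00, 2.14 and 1.85 at P15, the opposite direction of its neighbour. SEMA3G was also highest at P15, at a mean of 1.78 CPM against 0.169 CPM at P0. SEMA3E, the ligand of PLXND1, stayed at or below 1 CPM in every library, as did SEMA4A, SEMA5B and SEMA6D.

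Among the receptors of the semaphorins, 4 of the 8 plexins tested were called lower in P15 against P0 and none higher, and NRP1 was called lower as well. Of all genes tested, 11.5% were called lower and 12.2% higher in this comparison. Without the fold threshold 6 plexins were lower and 1, PLXNA1, was higher, beside 86.2% of all genes in either direction. NRP1, the co-receptor of SEMA3A and of VEGF, was at 7.48, 7.31, 7.38 and 7.38 at P0 and 7.50, 7.48, 7.53 and 7.51 at P3 in log2(CPM + 1). At P7 NRP1 read 7.67, 7.72, 7.74 and 7.73, and at P15 it read 4.62, 4.60, 4.54 and 4.56 on the same scale. It changed little up to P7, where all libraries were the highest, and then dropped to a mean of 22.9 CPM from 209 CPM. The log2 fold change was -3.13 (SE 0.03, adjusted p = 1.1e-28) in P15 against P7 and -2.81 (SE 0.03, adjusted p = 1.1e-27) in P15 against P0. NRP2, the co-receptor of SEMA3F, changed by less than 2-fold, with 0.20 (SE 0.10, adjusted p = 0.07) in P3 against P0, which did not pass, and -0.38 (SE 0.10, adjusted p = 0.00097) in P15 against P0 as log2 fold changes. PLXNA2, a receptor of SEMA6A and, with a neuropilin, of class 3 semaphorins, had log2(CPM + 1) values of 4.77, 4.53, 4.68 and 4.60 at P0 and 6.45, 6.34, 6.33 and 6.44 at P3. PLXNA2 read 5.38, 5.28, 5.60 and 5.40 at P7 and 2.80, 2.58, 2.82 and 2.62 at P15 on the same scale. It peaked at P3 and was lowest at P15, with no overlap of phases. The PLXNA2 log2 fold change was 1.75 (SE 0.07, adjusted p = 1.2e-16) in P3 against P0 and -0.97 (SE 0.07, adjusted p = 1.9e-11) in P7 against P3, the latter just under 2-fold. It was -2.71 (SE 0.07, adjusted p = 1.7e-21) in P15 against P7 and -1.94 (SE 0.07, adjusted p = 1.6e-18) in P15 against P0.

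PLXNB3, the receptor of SEMA5A, read 4.63, 4.94, 4.47 and 4.64 at P0 and 5.32, 5.41, 5.20 and 5.23 at P3 in log2(CPM + 1). For PLXNB3 the P7 libraries read 5.44, 5.29, 5.16 and 5.28, and the P15 libraries 2.28, 2.09, 2.34 and 1.92 on the same scale. P3 and P7 overlapped at the top and P15 lay far below, with a log2 fold change of -3.13 (SE 0.09, adjusted p = 3e-20) in P15 against P7 and -2.51 (SE 0.09, adjusted p = 2.9e-18) in P15 against P0. SRPK3 on the same strand shares 20.4% of the PLXNB3 exon length and had a mean of 0.959 CPM over the 16 libraries. PLXNA3, 679 kb from PLXNB3 on chromosome X, was at 6.92, 7.09, 6.80 and 6.97 at P0 and 7.36, 7.43, 7.44 and 7.53 at P3 in log2(CPM + 1). At P7 PLXNA3 read 7.18, 7.14, 7.13 and 7.19, and at P15 it read 5.64, 5.66, 5.80 and 5.52 on the same scale. It was lower at P15 as well, by log2 fold changes of -1.50 (SE 0.05, adjusted p = 1.9e-18) against P7 and -1.29 (SE 0.05, adjusted p = 4.8e-17) against P0. PLXNC1, the receptor of SEMA7A, had 2.17, 2.30, 2.26 and 2.12 at P0 and 2.59, 2.13, 2.20 and 2.23 at P3 in log2(CPM + 1). PLXNC1 read 1.90, 2.25, 1.92 and 2.34 at P7 and 0.97, 1.13, 0.94 and 0.86 at P15 on the same scale, with the first 3 phases overlapping and P15 below them. PLXNC1 differed by -1.13 (SE 0.11, adjusted p = 1e-09) and -1.24 (SE 0.11, adjusted p = 2e-10) in P15 against P7 and P0 as log2 fold changes, which were -0.48 and -0.53 and not called with a pseudocount of 5.

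SEMA7A with PLXNC1 and SEMA5A with PLXNB3 are ligand and receptor pairs of which both members were called lower at P15. These pairs were picked after the values were seen. NTN1 and its receptor UNC5B were both called higher in P15 against P0, while some other pairs named here did not move together. In P15 against P0 SEMA6A was called higher (3.90) and its receptor PLXNA2 lower (-1.94), as log2 fold changes. SEMA4C was called higher and SEMA3F lower, while their receptors PLXNB2 and NRP2 were not called. PLXNB2, a receptor of class 4 semaphorins and the most abundant plexin per kb of exon in all phases (54.1% ± 1.09 at P0 and 58.7% ± 1.8 at P15, SD, n = 4 libraries), was nearly level, with a log2 fold change of -0.23 (SE 0.03, adjusted p = 2.9e-07) in P3 against P0 and -0.08 (SE 0.03, adjusted p = 0.017) in P15 against P0. PLXNA1 was higher at P15 by 0.56 (SE 0.05, adjusted p = 1.3e-10) against P0, under 2-fold, and PLXNB1 was at -0.63 (SE 0.05, adjusted p = 3.3e-11) in P15 against P0 and at 0.10 (SE 0.05, adjusted p = 0.086) in P15 against P7, where the latter did not pass. PLXND1 was highest at P7, with a log2 fold change of 0.52 (SE 0.05, adjusted p = 4e-09) in P7 against P3, and did not differ detectably between P15 and P0 (-0.08, adjusted p = 0.13). Counted together per kb of exon, neuropilins went from 18.8 ± 0.402 CPM per kb at P7 to 2.39 ± 0.098 at P15, plexins from 80.5 ± 2.24 to 68.3 ± 2.23, and semaphorins from 129 ± 1.23 to 220 ± 3.87 (SD, n = 4 libraries).

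NTN1, the founding netrin, rose at P15, and so did UNC5B, its receptor on vessels and in cell survival control. NTN1 was at 4.20, 4.12, 4.01 and 4.12 at P0 and 4.20, 4.31, 4.20 and 4.20 at P3 in log2(CPM + 1). For NTN1 the P7 libraries read 4.59, 4.44, 4.51 and 4.59, and the P15 libraries 5.87, 5.86, 5.67 and 5.80 on the same scale. P0 and P3 overlapped (0.12 as log2 fold change, adjusted p = 0.069), P7 lay above them and P15 above all. The log2 fold change was 1.27 (SE 0.06, adjusted p = 1.4e-16) in P15 against P7 and 1.69 (SE 0.06, adjusted p = 4.6e-19) in P15 against P0. UNC5B was low, with 0.71, 0.53, 0.81 and 0.64 at P0 and 0.84, 0.68, 0.87 and 0.82 at P3 in log2(CPM + 1). At P7 UNC5B read 0.84, 0.75, 0.49 and 0.86, and at P15 it read 2.22, 2.16, 1.53 and 1.97 on the same scale, and only the P15 libraries stood apart. It differed by 1.24 (SE 0.13, adjusted p = 1.9e-09) and 1.30 (SE 0.13, adjusted p = 8.3e-10) in P15 against P7 and P0 as log2 fold changes, which were 0.49 and 0.51 and not called with a pseudocount of 5. NTN4, a laminin-binding netrin, went the other way (-0.94 (SE 0.08, adjusted p = 7.1e-11) in P15 against P0), just short of the 2-fold threshold on the log2(CPM + 1) scale and 2.02-fold lower in mean CPM. It was called with a pseudocount of 0.1 (-1.01), under quantile normalization (-1.05) and without P0 replicate 1 (-1.03). NTN1 went from 44.4% ± 0.641 of the netrin level per kb of exon at P7 to 78.2% ± 1.35 at P15. UNC5A was higher than at P0 in P3 (0.78 (SE 0.11, adjusted p = 6.8e-07)) and in P15 (0.69 (SE 0.11, adjusted p = 2e-06)), which were 1.69 and 1.53 and called with a pseudocount of 0.1, and the attractive netrin receptor DCC had a highest phase mean of 0.0378 CPM, under the 3-count floor. NTN5 was not tested and was highest at P15, at a mean of 0.53 CPM, much of it from replicate 3. Its P15 libraries read 0.49, 0.30, 1.12 and 0.39 in log2(CPM + 1). UNC5D was listed at 0 in all 16 libraries.

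In all, 23 members were not tested, of which 16 had every library at or below 1 CPM and 7 had a library above it (SEMA3B, SEMA3G, EPHA3, EPHB6, ROBO2, SLIT3 and NTN5). Of the 69 members, 59 had an upstream window in the RefSeq table. In P15 against P0, 8 of the 14 members called higher had one, 7 of them with a GC box and 2 with a CCAAT box, and a median of 21.5 CG dinucleotides (9 to 30). Of the 13 called lower, 12 had one, 11 with a GC box and 2 with a CCAAT box, and a median of 22.5 CG dinucleotides (9 to 41). None of these windows held the letters TATAAA, the only form of the TATA box that was searched. None held an AP-1 site (TGANTCA) or an E-box (CACGTG). Over all 35116 windows of this length, both strands searched, the share with a match was 42.6% for the GC box, 32% for the CCAAT box, 10.7% for the TATA box, 6.57% for the AP-1 site and 6.34% for the E-box, and the median was 11 CG dinucleotides (quartiles 3 and 23). The medians of both groups thus lay above that of all windows in CG dinucleotides. These sets are not alike, as all windows include several starts of a gene and genes not tested here. Each member has only the window nearest its annotated start. A match of letters does not show that a factor binds there.

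Other genes of the pathways were taken from lists by role. Of 23 receptors and ligands outside the families, 9 were tested, and none was called in P3 against P0 or P7 against P3 by limma (in each, 4 were higher and 3 lower at an adjusted p below 0.05 alone). Of all genes, 4.47% and 1.84% were called in these 2 comparisons, and 68.7% and 58.2% passed the adjusted p. In P15 against P0, RGMB and FLRT2 were called higher and L1CAM and NTNG1 lower, 4 of 9 beside 23.6% of all genes. L1CAM, an adhesion molecule that pairs with NRP1, was at a mean of 9.88, 9.79, 10.37 and 4.22 in log2(CPM + 1) over P0, P3, P7 and P15, a log2 fold change of -5.66 (SE 0.03, adjusted p = 2.1e-33) in P15 against P0. NTNG1, a lipid-anchored netrin relative, had -4.46 (SE 0.07, adjusted p = 1.1e-25) and FLRT2, a ligand of UNC5 receptors, 2.17 (SE 0.10, adjusted p = 1.7e-16) in the same comparison. Of 56 cytoplasmic effectors, 50 were tested, with 1 higher (RND3) and 1 lower (GRB7) in P3 against P0, beside 4.47% of all genes. By limma none was called in P7 against P3 (13 were higher and 19 lower at an adjusted p below 0.05 alone, beside 58.2% of all genes). In P15 against P7, 7 were called higher and 8 lower, beside 25.5% of all genes. In P15 against P0 there were 8 higher and 11 lower, beside 12.2% and 11.5% of all genes. Those past 4-fold in P15 against P0 were the adaptor GRB7 (2.69), the small GTPases RND2 (2.57) and RRAS (2.29), and, lower, DPYSL3 of the collapsin response family (-4.47) and the actin binder ABLIM3 (-2.35), as log2 fold changes. Of 10 proteases and binding partners, 9 were tested. ADAMTS1 and GRIP1 were higher in P3 against P0 (4.47% of all genes were called), ADAMTS1 was lower in P7 against P3 (1.84%), and SDCBP, GRIP1 and MMP14 were lower in P15 against P7 (25.5%). ADAM17 was higher and SDCBP and MMP14 lower in P15 against P0 (23.6%), where the membrane protease MMP14 had -2.73 (SE 0.04, adjusted p = 8.5e-26).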

How the data were processed

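RNA from 16 libraries of the GRC1 line and its parental T24 cells was used, 4 each at P0, P3, P7 and P15. Paired-end reads had been mapped to GRCh38 by the authors with STAR (version 2.6.1a) and summarised per gene with featureCounts. The deposited values are log2(CPM + 1) with 2 decimals. The quantile normalization and median centring that the methods describe are not seen in the deposited log2 values, which return to sums of 999894 to 1000095 CPM per library. The strand setting of the counting is not given in the sources used here.

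The 13249 genes averaging above 1 CPM were fitted in R 4.3.3 with limma 3.58.1 (1 coefficient per phase, trended variance prior), and Benjamini-Hochberg adjustment was made over all of them. The code was also run on simulated counts in which some genes differed between P0 and P15 by known folds. Those libraries were independent and had the same spread for every gene. As this may not hold here, the run bears on the code and not on these data. Fold changes are on the log2(CPM + 1) scale, which understates those of low genes. Exon lengths and positions are from GENCODE version 44 on GRCh38, to which all 69 members matched by symbol, and CPM per kb divides by the merged exon length. Named in full are members called in at least 1 comparison, then the most abundant member of each family and the usual partners of called members, and pathway genes outside the families are named when called by at least 4-fold, while the shorter lists are named as called. The members, lists and tests were chosen with earlier results of these data known. The alternatives tried were a pseudocount of 0.1 or 5, other filters, equal medians, quantile normalization, no variance trend, no fold threshold, pairs of phases alone, a replicate block, and each library left out in turn.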

Additional observations from a re-analysis of the deposited data

Results flagged for a closer look

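Of 184 groups of 4 libraries (46 members in 4 phases), 12 held a library set apart from the other 3 by a gap above the 95% limit of Dixon's test, which chance gives in about 1 of 20 groups, or 9.2 of these. A higher library was seen for SEMA3A (P3 replicate 1, gap 0.89 of the range), SEMA3C (P3 replicate 1, 0.83), PLXNA1 (P3 replicate 4, 0.87), PLXNB2 (P3 replicate 2, 1.00), NTN1 (P3 replicate 2, 1.00), EPHA4 (P7 replicate 2, 0.93), EPHB3 (P0 replicate 4, 0.89), PLXNB1 (P15 replicate 3, 0.93) and SEMA6C (P15 replicate 3, 0.93). A lower library was seen for SEMA6C (P0 replicate 3, 0.85), EPHB1 (P15 replicate 2, 0.83) and ROBO4 (P15 replicate 1, 0.88). No call on these genes was lost when the library was left out, and 1 was gained, EPHB3 in P3 against P0 (1.05 without P0 replicate 4 against 0.98 with it, as log2 fold change).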

How the results depend on the processing

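The numbers of guidance genes called in P3 against P0, P7 against P3, P15 against P7 and P15 against P0 were 8, 3, 29 and 27. With no fold threshold they were 37, 31, 41 and 43, and with a pseudocount of 5 they were 5, 2, 24 and 20, and with one of 0.1 they were 11, 3, 29 and 30. With 1 CPM required in all libraries they were 7, 3, 20 and 18, with 35 members left to test, and with each library left out in turn they ranged over 8 to 9, 3 to 4, 29 to 29 and 27 to 28. Except for the setting with no fold threshold, shares of all genes under these alternatives are not given here. Such counts thus show only how the member calls depend on the setting. Replicate numbers do not pair the libraries: deviations of libraries with the same number correlated at -0.15 to 0.22, and 4 of 16 libraries correlated best with their own number. A fit with a block for the number (both numberings of the labels) again gave 8, 3, 29 and 27. Of 651 called values recomputed under the alternatives that kept all libraries, 634 kept direction and call, 17 were no longer called and 0 reversed. Of the 17, 16 came with a pseudocount of 5, which by construction shrinks the fold changes of low genes, and 1 with quantile normalization (EPHA2 in P15 against P7). Of 896 values not called, 9 became called, 6 with a pseudocount of 0.1 (EPHB3 and UNC5A in P3 against P0 and in P15 against P0, EFNB3 in P3 against P0, NTN4 in P15 against P0) and 3 with quantile normalization (EPHB3 in P3 against P0, NTN4 in P15 against P7 and against P0). With a library left out 4 more did, EPHB3 in P3 against P0 (without P0 replicate 4 or P3 replicate 3), PLXNA2 in P7 against P3 (-1.04 without P7 replicate 3) and NTN4 in P15 against P0 (without P0 replicate 1). EFNA4 in P15 against P0, not called, went from 0.04 to -0.05 with quantile normalization, and the cause was not tested. At the estimated depth, differences of members near 3 counts per library were not detectable.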
